A study of Homo sapiens with 6 samples.

Results

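The expression of 46 genes of homologous recombination, the BRCA complexes and the Fanconi anemia pathway was measured in OVCAR3 cells with and without knockdown of NUF2. The genes were taken by name from a list of pathway members, drawn up with earlier results of these data known, and all 46 were found among the 19973 genes of the deposited table. All 46 also had enough reads to be tested, among 12874 genes tested in all. OVCAR3 is an established human ovarian carcinoma line. The control group, shNC, consisted of 3 libraries of OVCAR3 cells transfected with a negative control hairpin, labelled as wild type. The knockdown group, shNUF2, consisted of 3 libraries of cells transfected with a hairpin against NUF2, an outer kinetochore protein of the NDC80 complex. Per the methods of the study, the hairpin against NUF2 was carried on a vector with a puromycin resistance gene, and the vector of the control hairpin is not given. Neither the labels nor the methods state whether the sequenced cells were 1 clone or a pool, or whether the libraries of a group came from separate cultures. The p-values therefore measure the spread between these libraries, which may be technical, and no untransfected cells were analysed here. The supplement of the study lists 1 hairpin against NUF2, and an effect of this hairpin on other genes was not tested.

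Homologous recombination repairs a double-strand break by copying an intact sister chromatid. The broken ends are trimmed by nucleases, BRCA1 and its partners bring BRCA2 to the single strands, and the strands then search for the matching sequence. The Fanconi anemia pathway detects a crosslink between the strands, attaches ubiquitin to FANCD2 and FANCI, and hands the resulting break to recombination. Most of these genes are transcribed most strongly in dividing cells, and loss of several of them makes ovarian carcinoma cells sensitive to platinum drugs and PARP inhibitors.

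The target gene was examined first. NUF2 was read 903, 1096 and 1092 times in control libraries, against 281, 290 and 384 times after knockdown. The log2 fold change, shNUF2 against shNC, was -1.51 with a standard error (SE) of 0.08, and the groups did not overlap. The libraries held 13057534 to 16995452 counted reads. The variation between libraries of a group beyond counting noise, as edgeR's common coefficient over all genes, was 4.93%. Of the epithelial and Müllerian markers, KRT7 had at least 7485 reads in every library, KRT8 4967, KRT18 1581, MSLN 3020, MUC16 371 and PAX8 143, whereas CLDN3 had 0 reads, WFDC2 at most 1, WT1 at most 7, KRT19 at most 8, CDH1 between 9 and 33 and EPCAM between 44 and 91. CLDN3, WFDC2, WT1 and KRT19 were thus at or near 0 reads in every library. The name of the line is taken from the labels, and its identity was not tested. Of the 9 ovarian carcinoma markers tested out of 13, 5 were higher and 3 lower with shNUF2, against 33.9% higher and 33.8% lower among all genes tested. KRT8 changed by 1.04, MSLN by -0.75 and CLDN4 by 1.14 (log2 fold change). Of 14 blood, endothelial and stromal markers, 6 had enough reads to be tested, of which 3 were higher and 1 lower. Their summed level was 88.4 to 94.9 CPM, counts scaled to a common library size, with shNC and 78.7 to 86.7 CPM with shNUF2, most of it COL1A1 (-0.39), while DCN (1.22) and CDH5 (3.45) were higher and HBB had 0 reads.

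Most of the recombination genes were lower after NUF2 knockdown. Of the 46 genes, 31 (67.4%) were lower and 1 (2.17%) was higher at an adjusted p under 0.05 by edgeR's quasi-likelihood test, adjusted after Benjamini-Hochberg across every gene tested. Among all genes tested, 33.8% were lower and 33.9% higher, so that the share of lower genes in the set stood above the background and the share of higher genes below it. The median log2 fold change was -0.37 over the 46 genes and -0.01 over all genes. At an unadjusted p under 0.05 in either direction, 32 of the 46 genes passed, against 70.2% of all genes tested, a share near the background. In bulk RNA, fewer cells of a type or cycle phase and less RNA per cell cannot be told apart.

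The decreases were moderate. The 31 lower genes had 0.516 to 0.880 times their shNC level, with a median of 0.724, and 14 of them fell by more than 0.5 on the log2 scale. None of the 46 genes passed a log2 fold change beyond 1 together with an unadjusted p under 0.05, in either direction, by edgeR or by DESeq2 (0 genes each), whereas 4.16% of all genes tested were lower and 9.41% higher by that rule. RAD52 at -0.95 came nearest to it among the lower genes. With 1 library left out, 1 gene passed it in 3 of the 6 cases, DMC1 at -1.05 without the second shNC library, RAD52 without the third shNC library and DMC1 at -1.08 without the second shNUF2 library. The summed level of the set was 2583, 2665 and 2585 CPM in the shNC libraries and 1979, 2009 and 2043 CPM in the shNUF2 libraries, a change of -23.0%. Every shNUF2 library thus stood below every shNC library in the sum.

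Most of the genes, but not all, separated the libraries in the direction of the sum. In 31 of the 46 genes all shNUF2 libraries lay below all shNC libraries, against 35.4% of all genes tested, and in 3 genes, XRCC3, FANCB and POLQ, all lay above, against 35.2%. In the other 12 genes the groups overlapped. Within a group the level of a gene varied by a median of 5.7% among control libraries and 6.07% among knockdown libraries (coefficient of variation of CPM over 3 libraries, counting noise included). Among the 40 genes with an average of at least 200 reads in the shNC libraries, 30 were lower, and among the 6 with fewer reads (RAD51B, RAD54B, DMC1, FANCF, FANCG and RAD50), 1 was lower. The SE of the log2 fold change was 0.17 to 0.41 in those 6 and 0.05 to 0.13 in the other 40.

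**Figure D1:**
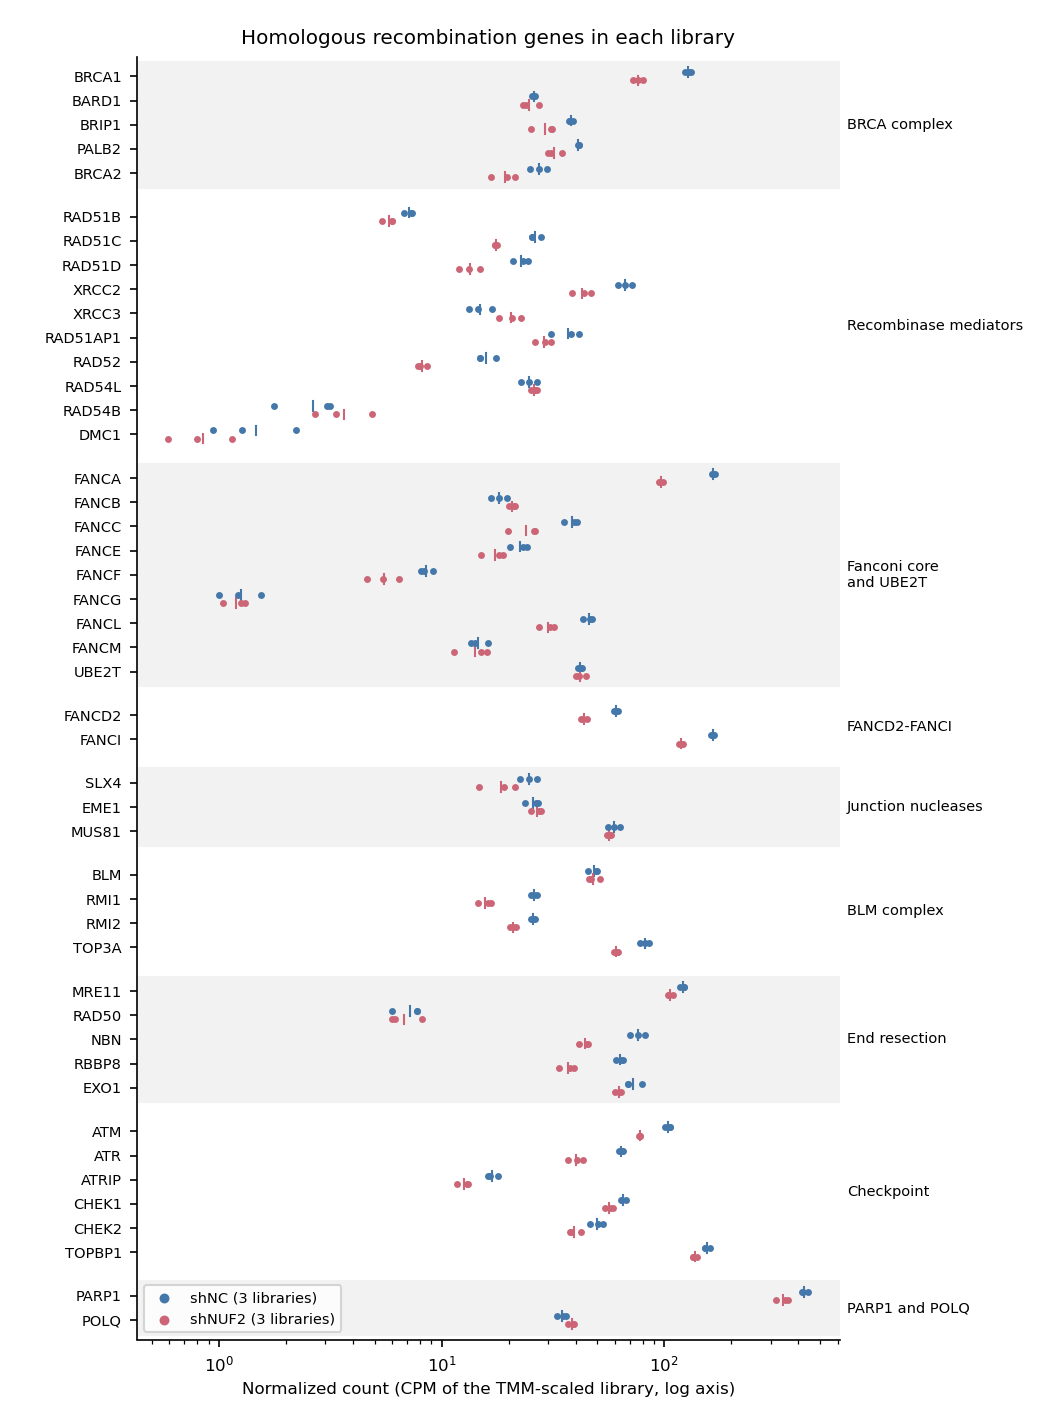
The level of each of the 46 genes in each library, as normalized CPM on a log axis, grouped by role, with shNC in blue and shNUF2 in red, 3 points per group and a vertical line at the mean. In 31 genes the red points all lie left of the blue points, and the widest scatter is in genes with few reads such as DMC1 and RAD54B.

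Promoters of 5 genes are printed here to show the sequence from which these transcripts start, 4 of them for an element of cell cycle promoters that was searched in all promoters and BRCA1 as the gene that gave the set its name. Promoters span 250 bases before to 50 bases after an annotated start and come from RefSeq on GRCh38.p14, 5′ to 3′ on the strand of the gene, and 42 of the 46 genes matched 56 promoters. The elements searched, on either strand, were an E2F motif (TTTGGCGC, TTTGCCGC, TTTCGCGC or TTTCCCGC), the cell cycle genes homology region CHR (TTTGAA) and the CCAAT box (CCAAT), and capitals mark their matches. The FANCA promoter, chr16:89816598-89816897 on the minus strand, holds an E2F motif whose first base is at -172 from the start and a CCAAT box at -33. The FANCD2 promoter, chr3:10026187-10026486 on the plus strand, holds an E2F motif at -2, across the start. In the XRCC2 promoter, chr7:152676092-152676391 on the minus strand, the E2F motif begins at 22, after the start. BRCA1 has 2 promoters in the table, of which the one printed, chr17:43125315-43125614 on the minus strand, holds a CCAAT box at -175 and neither of the other motifs, and the other, chr17:43170278-43170577, holds none of them. The UBE2T promoter, chr1:202341887-202342186 on the minus strand, is shown as that of a gene whose level did not pass the test, with a CHR match at -153 and CCAAT boxes at -124 and -73.
FANCA: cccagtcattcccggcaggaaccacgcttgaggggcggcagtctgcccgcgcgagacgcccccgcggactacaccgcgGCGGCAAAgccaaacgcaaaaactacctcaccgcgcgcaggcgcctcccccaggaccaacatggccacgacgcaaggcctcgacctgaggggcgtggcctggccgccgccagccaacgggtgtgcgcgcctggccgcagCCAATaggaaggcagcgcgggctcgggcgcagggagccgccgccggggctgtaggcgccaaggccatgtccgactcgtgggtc
FANCD2: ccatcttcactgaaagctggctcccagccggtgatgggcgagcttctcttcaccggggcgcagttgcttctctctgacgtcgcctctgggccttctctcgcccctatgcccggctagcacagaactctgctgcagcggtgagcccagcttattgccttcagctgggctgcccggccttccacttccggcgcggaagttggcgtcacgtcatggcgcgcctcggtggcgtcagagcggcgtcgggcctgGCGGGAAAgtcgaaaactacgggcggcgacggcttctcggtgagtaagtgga
XRCC2: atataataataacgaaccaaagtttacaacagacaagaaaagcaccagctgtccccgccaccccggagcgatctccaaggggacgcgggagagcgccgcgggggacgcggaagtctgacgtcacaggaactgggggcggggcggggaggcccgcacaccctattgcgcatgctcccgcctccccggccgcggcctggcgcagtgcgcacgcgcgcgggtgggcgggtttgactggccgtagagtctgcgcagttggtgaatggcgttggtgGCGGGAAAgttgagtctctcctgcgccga
BRCA1: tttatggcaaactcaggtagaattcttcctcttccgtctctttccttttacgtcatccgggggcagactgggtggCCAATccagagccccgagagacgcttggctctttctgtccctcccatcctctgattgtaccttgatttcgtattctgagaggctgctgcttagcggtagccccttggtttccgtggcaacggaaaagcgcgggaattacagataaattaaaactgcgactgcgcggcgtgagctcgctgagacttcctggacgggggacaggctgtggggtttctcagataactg
UBE2T: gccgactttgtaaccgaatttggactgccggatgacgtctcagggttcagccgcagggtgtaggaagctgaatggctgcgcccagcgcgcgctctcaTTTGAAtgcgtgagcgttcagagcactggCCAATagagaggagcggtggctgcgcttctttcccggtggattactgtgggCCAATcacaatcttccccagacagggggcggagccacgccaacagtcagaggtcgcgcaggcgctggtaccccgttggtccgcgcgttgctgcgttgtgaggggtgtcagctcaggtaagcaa

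The E2F motif was found in 8 of the 56 promoters of the set (14.3%), in 4.8% of the 15132 promoters of genes tested and in 3.31% of all 35116 promoters of the table. The genes with a match were XRCC2, DMC1, FANCA, FANCC, FANCD2, RMI1, EXO1 and TOPBP1, of which 7 were lower with shNUF2, DMC1 being the exception, against 21 of the 34 genes without a match. Their median log2 fold change was -0.66, with a range of -0.81 to -0.18, and that of the genes without a match was -0.35, with a range of -0.95 to 0.46, so that the ranges overlapped. Counting only the 250 bases before the start left 3 promoters with a match (5.36%), against 4.04% of the promoters of genes tested and 2.79% of all promoters. The CHR motif was found in 8.93% of the promoters of the set (BRIP1, FANCC, UBE2T, ATM and POLQ), in 10.5% of those of genes tested and in 15.2% of all promoters. The CCAAT box was found in 41.1% of the promoters of the set and in 34.6% of those of genes tested, but counted per gene, where overlapping promoters of 1 gene count once, in 42.9% and 43.2%. The median log2 fold change was -0.39 with a CHR match and -0.36 without, and -0.35 with a CCAAT box and -0.42 without. No matches of different motifs overlapped. These matches describe letters in a window, and binding of a factor was not measured.

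BRCA1 showed the clearest change among the genes of the BRCA complexes. BRCA1, the ubiquitin ligase subunit that starts recombination at a break, lies on chromosome 17 at 43044295 to 43170245 (GRCh38, minus strand). It gave 1763, 2066 and 2269 reads in control libraries and 978, 987 and 1203 in knockdown libraries, or 128 ± 4.02 and 76.2 ± 3.72 CPM (mean ± SD of 3 libraries, as in all CPM values below). The highest shNUF2 library was far below the lowest shNC library, and the log2 fold change was -0.75 (SE 0.05, adjusted p = 8.57e-13 by edgeR's quasi-likelihood test, Benjamini-Hochberg adjusted, as for all adjusted p-values below). BARD1, the obligate partner of BRCA1 in the ligase, was counted 361, 417 and 450 times in shNC and 369, 310 and 350 times in shNUF2 libraries. Its groups overlapped, and the log2 fold change was -0.06 with a 95% interval of -0.25 to 0.12, so that a decrease of the size of that of BRCA1 lay outside the interval.

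PALB2, BRCA2 and BRIP1 had smaller changes. PALB2, which links BRCA1 to BRCA2, was read 581, 661 and 708 times with shNC, against 404, 401 and 524 times with shNUF2, or 41.1 ± 0.248 and 31.9 ± 2.59 CPM. The groups did not overlap in CPM or in reads, and the log2 fold change was -0.36 (SE 0.08, adjusted p = 1.55e-04). BRCA2, a mediator of strand exchange and a hereditary ovarian cancer gene, gave 354, 474 and 471 reads in control libraries and 224, 278 and 297 in knockdown libraries, or 27.3 ± 2.38 and 19.3 ± 2.42 CPM. The shNUF2 libraries were again all lower, at 0.705 times the control level, with a log2 fold change of -0.51 (SE 0.10, adjusted p = 9.73e-05). BRIP1, a helicase bound by BRCA1, changed by -0.39 (SE 0.08). Of the 5 genes of these complexes, 4 were lower and BARD1 did not pass, against 33.8% lower among all genes tested.

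The recombinase mediators were the most mixed role group. Of the 10 genes, 5 were lower, 1 was higher and 4 did not pass the test, against 33.8% lower and 33.9% higher among all genes tested. RAD52, which anneals single strands and can stand in for BRCA2, had the largest decrease of the called genes, with 212, 280 and 256 reads in control libraries and 116, 102 and 120 after knockdown, or 15.8 ± 1.52 and 8.14 ± 0.405 CPM. All shNUF2 libraries were below shNC, with a mean 0.516 times that of shNC, and the log2 fold change was -0.95 (SE 0.13, adjusted p = 2.91e-07). RAD51B, RAD51C, RAD51D, XRCC2 and XRCC3 are related proteins that work in complexes of several subunits, of which 3 were lower, 1 was higher and RAD51B did not pass. RAD51D was counted 347, 369 and 360 times in shNC and 179, 194 and 181 times in shNUF2 libraries, a log2 fold change of -0.77 (SE 0.11, adjusted p = 7.62e-07). XRCC2, its partner in the BCDX2 complex, was read 1018, 1068 and 1062 times with shNC, against 518, 607 and 657 times with shNUF2, or 66.7 ± 4.94 and 42.9 ± 4.19 CPM, and changed by -0.63 (SE 0.07, adjusted p = 1.71e-08). In both genes every shNUF2 library was below every shNC library. RAD51C changed by -0.59 (SE 0.09), and RAD51B by -0.30 (SE 0.17), which did not pass, although its shNUF2 libraries were all lower.

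XRCC3, the paralog that pairs with RAD51C, was the only gene of the set that was higher. It is described in full although it was singled out after its values were seen. XRCC3 gave 189, 231 and 290 reads in control libraries and 306, 235 and 311 in knockdown libraries, or 14.9 ± 1.82 and 20.5 ± 2.32 CPM, and changed by 0.46 (SE 0.11, adjusted p = 9.40e-04). The raw reads overlapped, and the normalized levels did not. Of the exonic bases of XRCC3 (chromosome 14, 103697609 to 103715504, minus strand), 76.7% are also exonic in genes on the opposite strand. The largest part is shared with KLC1, a kinesin light chain gene. KLC1 was counted 408, 433 and 459 times in shNC and 572, 470 and 605 times in shNUF2 libraries, a log2 fold change of 0.53 (SE 0.08, adjusted p = 2.30e-06). The library kit keeps the strand, but the strand setting of the counting is not given in the sources used here, so the part of KLC1 reads in the XRCC3 value was not tested.

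The remaining mediators gave small or imprecise values. RAD51AP1, which helps a strand invade the duplex, changed by -0.36 (SE 0.09) and passed the test, although its groups overlapped. RAD54L, a motor protein that acts on chromatin, changed by 0.07 (SE 0.09). Of its exonic bases, 25.1% lie opposite other genes, the largest part opposite LRRC41, which changed by -0.64 (SE 0.05). RAD54B, a relative of RAD54L, changed by 0.45 (SE 0.27) with 25 to 73 reads per library. Other genes on the same strand share 59.1% of the exonic bases of RAD54B, the largest part with FSBP, which changed by -0.11 (SE 0.22). The part of these overlaps in both values was not tested. DMC1, the meiotic recombinase, had 8 to 38 reads per library and a log2 fold change of -0.81 (SE 0.41). Neither RAD54B nor DMC1 passed the test. The log2 fold change of DMC1 rested on single libraries, at -1.05 (adjusted p = 0.0401) without the second shNC library, -0.38 (adjusted p = 0.508) without the third shNC library and -0.62 (adjusted p = 0.249) without the first shNUF2 library.

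**Figure D2:**
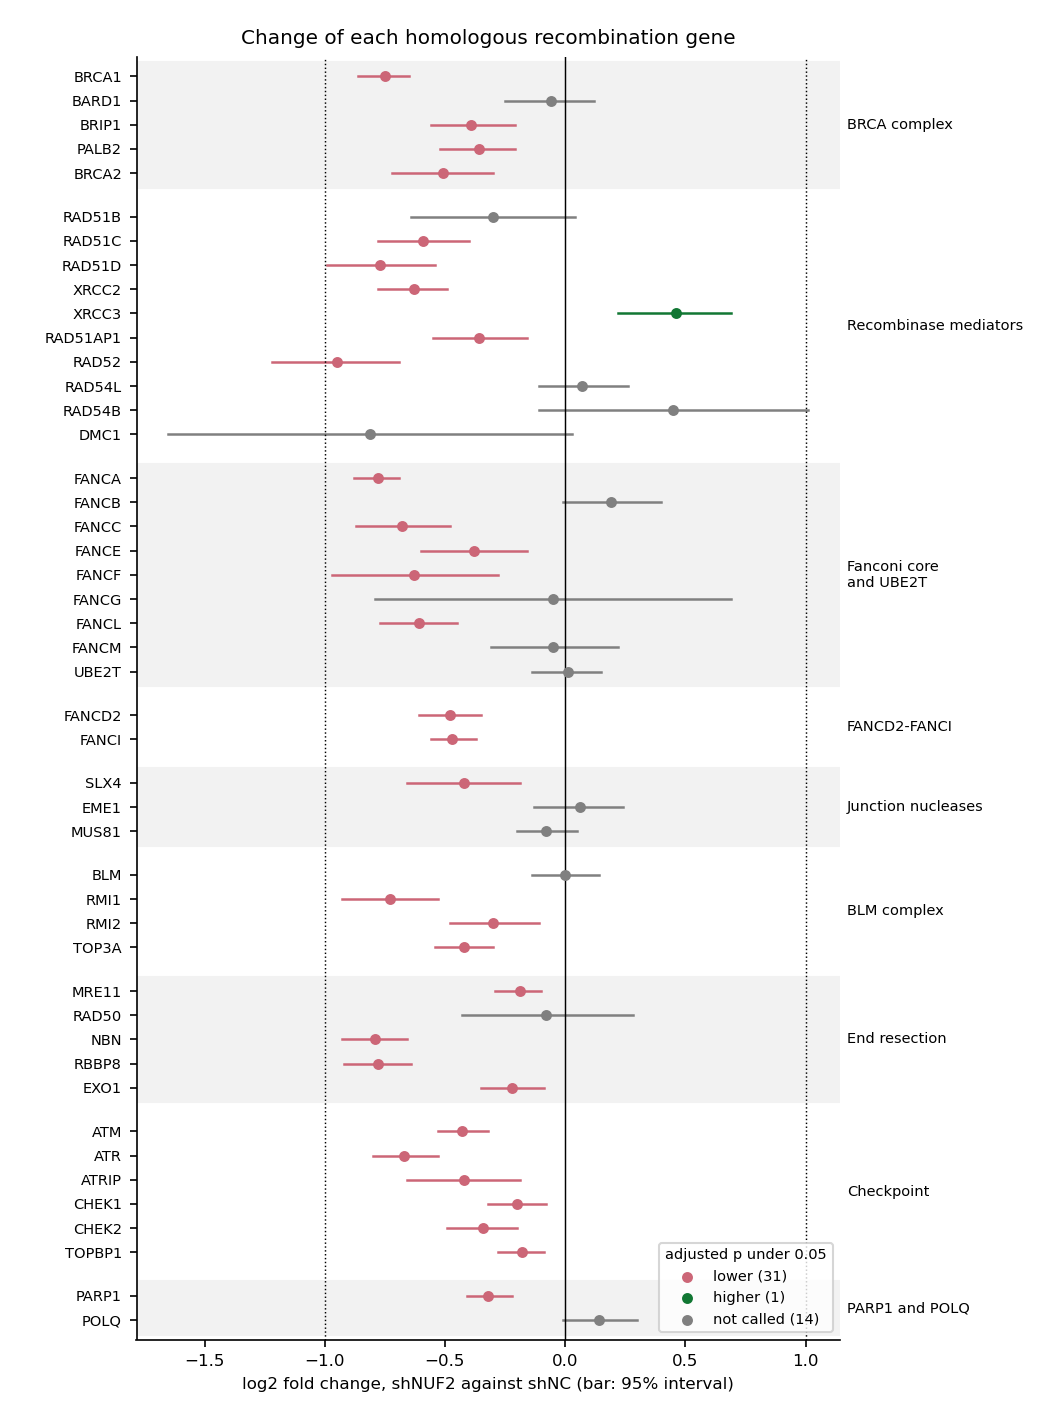
The log2 fold change of each gene, shNUF2 against shNC, with its 95% interval, by role, where red marks lower genes, green higher genes and gray genes that did not pass an adjusted p of 0.05. The points of 39 of the 46 genes are negative, from RAD52 at -0.95 to BLM near 0, and the dotted lines at -1 and 1 mark the fold threshold, which no gene passed together with p.

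The Fanconi anemia core complex adds ubiquitin to FANCD2 and FANCI together with the enzyme UBE2T. Of these 9 genes, UBE2T included, 5 were lower and none was higher, with 4 not passing. The shares among all genes tested were 33.8% lower and 33.9% higher. FANCA, a scaffold subunit on chromosome 16 at 89737549 to 89816657, had the smallest p of the set. It gave 2406, 2652 and 2814 reads in control libraries and 1276, 1245 and 1489 in knockdown libraries, or 166 ± 2.85 and 96.5 ± 2.25 CPM, a log2 fold change of -0.78 (SE 0.05, adjusted p = 4.63e-14). The libraries of each group were close together and the groups were far apart. Of the exonic bases of FANCA, 23.6% lie opposite other genes, the largest part opposite ZNF276, which changed by -0.22 (SE 0.11) and did not pass. FANCL, the ubiquitin ligase subunit, was counted 612, 760 and 801 times in shNC and 433, 400 and 411 times in shNUF2 libraries, a log2 fold change of -0.61 (SE 0.08, adjusted p = 1.36e-07). FANCC, a subunit that binds FANCE, was read 506, 630 and 695 times with shNC, against 353, 258 and 392 times with shNUF2, a log2 fold change of -0.68 (SE 0.09, adjusted p = 5.34e-07). Neither gene showed overlapping groups.

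The rest of the core complex was uneven. FANCE, which contacts FANCD2, changed by -0.38 (SE 0.11) and FANCF, an adaptor subunit, by -0.63 (SE 0.17), and both passed. FANCB, which acts beside FANCL in the complex, changed by 0.19 (SE 0.10) with all shNUF2 libraries above shNC in CPM, and did not pass. FANCG, a subunit that binds FANCA, had 14 to 22 reads per library and a log2 fold change of -0.05 (SE 0.36), with an interval of -0.79 to 0.69 that holds nearly every change seen in the set. FANCM, the translocase that anchors the complex on DNA, changed by -0.05 (SE 0.13). UBE2T, the ubiquitin-conjugating enzyme that works with FANCL, changed by 0.01 (SE 0.07), with an interval of -0.14 to 0.15. Per gene length, UBE2T had the highest level of the set at 25.7 FPKM with shNC (fragments per gene length and library size) and FANCG the lowest at 0.359 FPKM, around a median of 7.27 FPKM.

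Both subunits of the clamp that the core complex modifies were lower by nearly the same factor. FANCD2 (chromosome 3, 10026414 to 10101932) gave 848, 993 and 1044 reads in control libraries and 572, 559 and 678 in knockdown libraries, or 60.8 ± 1.25 and 43.5 ± 1.39 CPM, a log2 fold change of -0.48 (SE 0.06, adjusted p = 1.57e-07). FANCI was counted 2348, 2588 and 2868 times in shNC and 1562, 1560 and 1826 times in shNUF2 libraries, or 165 ± 2.43 and 119 ± 2.88 CPM, a log2 fold change of -0.47 (SE 0.05, adjusted p = 1.02e-09). All shNUF2 libraries were lower in both genes. The nucleases that cut crosslinks and recombination junctions differed: the scaffold SLX4 changed by -0.42 (SE 0.11) and passed, while MUS81, the catalytic subunit, changed by -0.08 (SE 0.06) and its partner EME1 by 0.06 (SE 0.09), neither passing. Of their exonic bases, 14.1% in MUS81 and 16.4% in EME1 lie opposite other genes. The largest partners were CFL1 for MUS81 (0.64, SE 0.05) and LRRC59 for EME1 (0.67, SE 0.04), and the part of these overlaps was not tested.

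In the BLM complex, which dissolves double Holliday junctions without crossing over, 3 of 4 genes were lower, against 33.8% of all genes tested. RMI1, a scaffold subunit, was read 382, 417 and 433 times with shNC, against 217, 188 and 249 times with shNUF2, or 26.0 ± 0.851 and 15.7 ± 1.10 CPM, a log2 fold change of -0.73 (SE 0.10, adjusted p = 2.88e-07). TOP3A, the topoisomerase, gave 1165, 1365 and 1332 reads in control libraries and 826, 774 and 933 in knockdown libraries, a log2 fold change of -0.42 (SE 0.06, adjusted p = 3.25e-07). The groups were apart for both. RMI2, a small partner of RMI1, changed by -0.30 (SE 0.09) and passed, whereas the helicase BLM itself did not, at 48.2 ± 2.24 CPM with shNC and 48.0 ± 2.80 CPM with shNUF2, with an interval of the log2 fold change of -0.14 to 0.14.

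Among the genes of end resection, 4 of 5 were lower, against 33.8% of all genes tested, with the largest decreases in NBN and RBBP8. NBN, the subunit of the MRE11-RAD50-NBN complex that recruits ATM, was counted 1002, 1310 and 1309 times in shNC and 607, 539 and 681 times in shNUF2 libraries, or 76.2 ± 5.75 and 43.9 ± 2.13 CPM. Its log2 fold change was -0.79 (SE 0.07, adjusted p = 3.84e-11). RBBP8, which encodes CtIP, the cofactor that starts resection, was read 928, 1022 and 1048 times with shNC, against 510, 510 and 506 times with shNUF2, or 63.4 ± 2.23 and 36.9 ± 2.91 CPM, a log2 fold change of -0.78 (SE 0.07, adjusted p = 1.36e-10). The lowest shNC library was well above the highest shNUF2 library in both genes. The nuclease MRE11 changed by -0.19 (SE 0.05), which passed. The long-range nuclease EXO1 changed by -0.22 (SE 0.06), and its call was lost without the second shNC library (-0.14, adjusted p = 0.0594). RAD50, the ATPase of the complex, changed by -0.08 (SE 0.17) and did not pass. It was read at 80 to 134 counts per library, or 0.633 FPKM with shNUF2 against 13.6 FPKM for MRE11. Of its exonic bases, 79.7% are shared with other genes on the same strand. The largest part is shared with AC116366.3, which was listed with 0 reads in every library. How the counting treated shared reads is not given in the sources used here, and its part in the level of RAD50 was not tested.

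All 6 checkpoint genes were lower, against 33.8% of all genes tested. ATM, the kinase activated at double-strand breaks, gave 1440, 1690 and 1819 reads in control libraries and 1049, 1012 and 1158 in knockdown libraries, or 104 ± 2.57 and 77.6 ± 0.491 CPM, a log2 fold change of -0.43 (SE 0.05, adjusted p = 2.85e-08). ATR, the kinase activated by single-stranded DNA, was counted 890, 1027 and 1118 times in shNC and 548, 478 and 650 times in shNUF2 libraries, or 64.0 ± 1.22 and 40.2 ± 3.24 CPM, a log2 fold change of -0.67 (SE 0.07, adjusted p = 1.64e-09). Both kinases separated the groups completely. CHEK1, the kinase downstream of ATR, was read 952, 1030 and 1100 times with shNC, against 772, 703 and 883 times with shNUF2, or 65.1 ± 1.62 and 56.7 ± 2.36 CPM, a smaller log2 fold change of -0.20 (SE 0.06, adjusted p = 0.00457). CHEK2, the target of ATM, changed by -0.34 (SE 0.07), ATRIP, the partner of ATR, by -0.42 (SE 0.11) and TOPBP1, the activator of ATR, by -0.18 (SE 0.05). Of the exonic bases of ATRIP, 27.9% are shared with other genes on the same strand, the largest part with TREX1, listed with 0 reads in every library.

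PARP1 and POLQ, enzymes on which cells without recombination come to depend, differed in direction of the estimate. PARP1, which senses strand breaks and is the target of PARP inhibitors, gave 5976, 7071 and 7145 reads in control libraries and 4301, 4530 and 5395 in knockdown libraries, or 426 ± 14.4 and 342 ± 20.6 CPM. Its log2 fold change was -0.32 (SE 0.05, adjusted p = 9.94e-07), and the groups did not overlap. POLQ, the polymerase of theta-mediated end joining, was counted 499, 578 and 569 times in shNC and 528, 506 and 558 times in shNUF2 libraries, or 34.8 ± 1.57 and 38.4 ± 1.13 CPM. All shNUF2 libraries were above shNC in CPM, but the log2 fold change of 0.14 (SE 0.07, adjusted p = 0.0906) did not pass, with an interval of -0.01 to 0.30.

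The ratio of partner genes within a library does not depend on the scaling between libraries, and 14 pairs whose proteins bind each other or act at the same step were compared in FPKM. In 7 of the 14 pairs the groups did not overlap, and since 35.4% of single genes tested lay all below and 35.2% all above, this count is no result about these partners. The ratio of BRCA1 to BARD1 was 3.97, 4.03 and 4.10 with shNC and 2.16, 2.59 and 2.80 with shNUF2, a difference of -0.69 on the log2 scale. The ratio of RAD51C to XRCC3 was 2.36, 2.39 and 1.88 with shNC and 0.962, 1.19 and 1.04 with shNUF2, a log2 difference of -1.05. BRCA1 to BRIP1 and NBN to RAD50 also had all shNUF2 ratios below shNC, with log2 differences of -0.36 and -0.71. XRCC3 and RAD50 share most of their exonic bases with other genes, and the part of the counting of shared reads in their ratios was not tested. In 3 pairs the shNUF2 ratios were all above shNC. UBE2T to FANCL was 1.45, 1.29 and 1.28 with shNC and 1.87, 2.12 and 2.15 with shNUF2. RMI2 to RMI1 was 0.922, 0.915 and 0.969 with shNC and 1.24, 1.32 and 1.23 with shNUF2, and BLM to TOP3A was 0.743, 0.719 and 0.728 with shNC and 0.941, 0.956 and 1.02 with shNUF2. With 3 libraries against 3, the exact two-sided permutation test cannot go below p = 0.1, which these 7 pairs reached (0.2 after Benjamini-Hochberg adjustment over the 14 pairs), so none passed. FANCI to FANCD2, whose products form 1 clamp, was 1.96, 1.84 and 1.94 with shNC and 1.93, 1.97 and 1.90 with shNUF2, a log2 difference of 0.02 (exact p = 0.7).

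**Figure D3:**
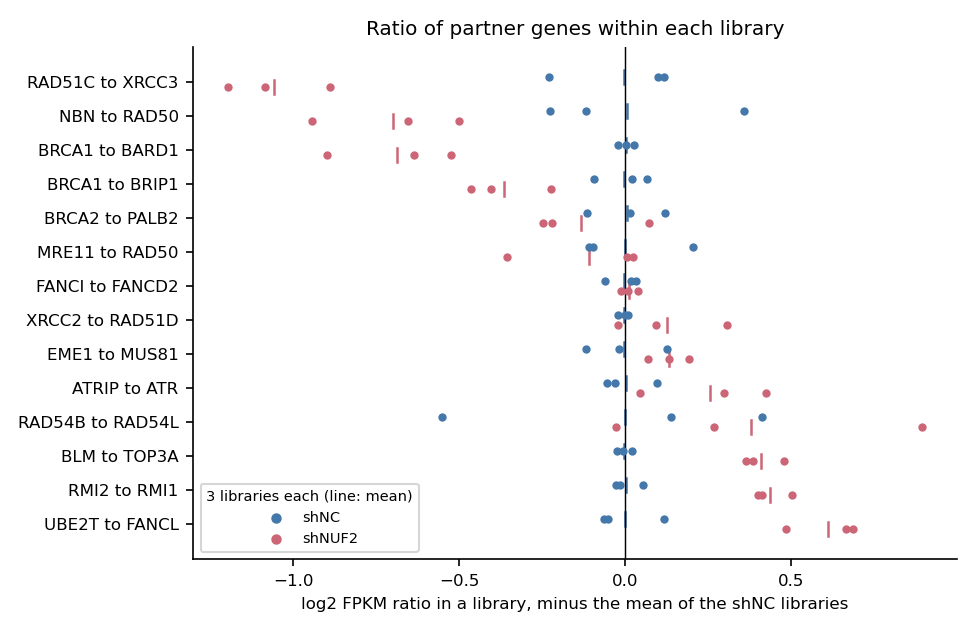
The log2 ratio of FPKM of 14 pairs of partner genes in each library, minus the mean of the shNC libraries, with shNC in blue, shNUF2 in red and a line at the group mean. RAD51C to XRCC3 lies furthest to the left at -1.05 and UBE2T to FANCL furthest to the right at 0.61, while FANCI to FANCD2 lies at 0.02. XRCC3 shares 76.7% of its exonic bases with genes on the opposite strand, the largest part with KLC1.

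Other repair genes were counted for comparison from lists chosen with results of these data known. Of 60 further recombination genes, 57 were tested, of which 17 (29.8%) were higher and 22 (38.6%) lower, with a median log2 fold change of -0.08. Both shares lay near those of all genes tested, 33.9% higher and 33.8% lower. The 3 with the smallest p were USP1, which removes ubiquitin from FANCD2 (-0.79, SE 0.05), EEPD1, a nuclease at stalled forks (1.90, SE 0.14), and SFR1, a cofactor of strand exchange (1.54, SE 0.13). Of 24 end joining genes, 23 were tested, of which 14 (60.9%) were lower and 1 higher, with a median of -0.24. PRKDC, the kinase of nonhomologous end joining, changed by -0.79 (SE 0.04), the ligase LIG3 by -1.06 (SE 0.08) and RIF1, which blocks resection, by -0.43 (SE 0.04).

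Markers of the cell cycle phases were counted in the same way, without a test between the lists. The shares to set beside them are 33.8% lower and 33.9% higher among all genes tested. Of 36 S phase markers, 20 (55.6%) were lower and 1 higher, with a median of -0.19, and their summed level went from 3430 to 3520 CPM with shNC to 2840 to 2940 CPM with shNUF2. POLA1 (-0.67, SE 0.05), MCM6 (-0.63, SE 0.05) and UNG (-0.66, SE 0.06) had the smallest p. Of 52 G2 and M phase markers, 15 (28.8%) were lower and 22 (42.3%) higher, with a median of 0.05, including TMPO at -0.86, TOP2A at -0.67 and CDCA2 at 0.76, and their summed level was 7310 to 7550 CPM with shNC and 7180 to 7410 CPM with shNUF2. The part of a change in cell cycle phase in the levels of the recombination genes was not tested.

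**Figure D4:**
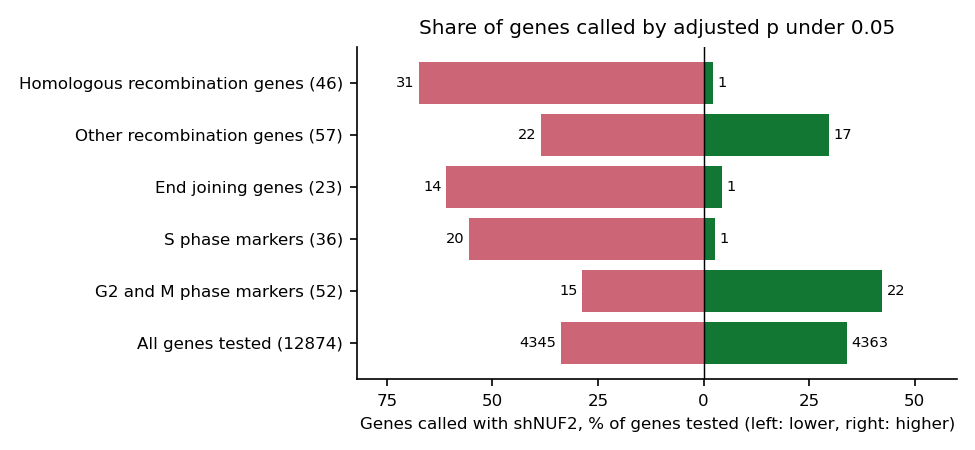
The share of genes tested that were lower (red, to the left) or higher (green, to the right) with shNUF2 at an adjusted p under 0.05 by edgeR, with the number of genes at each bar and the number tested in brackets. The 46 recombination genes have 31 lower and 1 higher, and all 12874 genes tested have 4345 lower and 4363 higher.

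Gene length, level and overlap with other genes were compared with the changes. Over the 46 genes, Spearman's rho of the log2 fold change was -0.15 with gene length and -0.08 with mean FPKM in shNC, as a description across genes measured in the same libraries. Of the 46 genes, 6 share 20% or more of their exonic bases with other genes on the same or the opposite strand (XRCC3, RAD50, RAD54B, ATRIP, RAD54L and FANCA). Among the other 40, 29 were lower and 0 higher by edgeR, with a median log2 fold change of -0.38. Smaller overlaps remained among these 40, such as 19.7% in FANCL, 16.4% in EME1 and 14.1% in MUS81, and their part was not tested. Pseudogenes, with which similar reads could be shared, were searched by name only, as the gene symbol followed by P. Such names are annotated for 6 of the 46 genes, 4 for CHEK2, 2 for PARP1 and 1 each for RAD51AP1, FANCD2, MRE11 and RBBP8. Pseudogenes with other names were not counted, and the part of pseudogenes in these values was not tested.

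**Figure D5:**
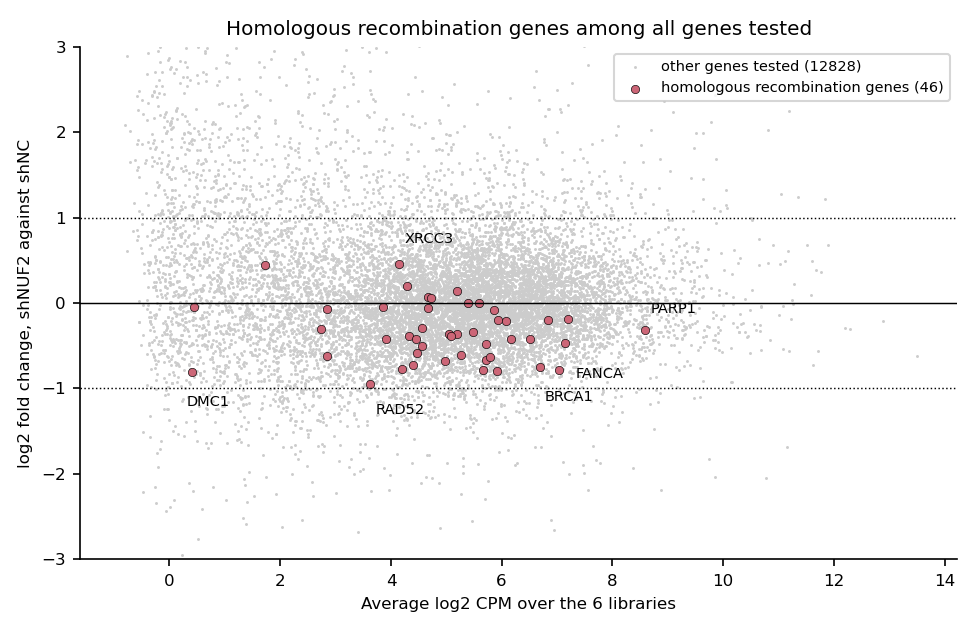
The log2 fold change of every gene tested against its mean level in log2 CPM, over the 6 libraries, with the 46 recombination genes in red and the other genes tested in gray. Most of the red points lie below 0, between -0.95 and 0.46, and 151 genes beyond 3 in either direction are not drawn.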

How the data were processed

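Poly(A) RNA of 6 OVCAR3 libraries was sequenced from strand-specific libraries, 3 with shNC and 3 with shNUF2, and groups were taken from the labels. The authors deposited read counts per gene, not normalized, for 19973 genes, and FPKM values, which equal the counts divided by gene length and library total within a relative difference of 2.71e-07. The submitters' processing notes name cutadapt, HISAT and HTSeq and the build GRCh38.p13, and the strand and overlap settings of the counting are not given in the sources used here. Functional annotation columns of the deposited table were not used.

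Testing used edgeR 4.0.16 (R 4.3.3). After filterByExpr and TMM scaling, genes were tested with the quasi-likelihood test over all 6 libraries without covariates, with Benjamini-Hochberg adjustment over 12874 genes. Calls used an adjusted p under 0.05 or, after the methods of the study, a fold change beyond 1, read here as log2 although the methods do not name the scale, with an unadjusted p under 0.05. SE was taken as the log2 fold change over the root of the F statistic. The script was tested on simulated data. FPKM ratios of partners were compared by exact permutation tests with scipy 1.17.1. Alternatives were other scalings and filters, DESeq2 1.42.0, limma 3.58.1 on log2(FPKM + 1) and log2(FPKM + 0.1), each library left out and a replicate block.

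The genes and lists were chosen with earlier results of these data known. Reads in every library are given for the 16 genes with the smallest p and for BRCA1, BRCA2, PALB2, FANCD2, ATM, ATR, CHEK1, PARP1 and POLQ, and beyond this rule for BARD1 and XRCC3, chosen after their values were seen. Of each other list, the 3 genes with the smallest p are named. Exonic overlap and pseudogenes named after the gene symbol were read from GENCODE release 29, and promoters from RefSeq. Libraries of a group differed beyond sampling noise (chi-square per degree of freedom 2.647 to 4.368) and were counted as separate. The depth of 13057534 to 16995452 reads per library limits the precision of genes with few reads.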

Additional observations from a re-analysis of the deposited data

How the results depend on the processing

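The number of lower recombination genes was 31 under every scaling, filter, tool and library left out, except 32 with limma on log2(FPKM + 1), where RAD51B passed (-0.16, adjusted p = 0.0442), and the number of higher genes was 1. Leaving out genes with 20% or more exonic overlap, chosen after seeing the data, gave 29 lower and 0 higher genes, since XRCC3 is among those left out. The median log2 fold change of the set, -0.373, was -0.343 with at least 1 CPM in every library (DMC1 not tested), -0.41 with library totals only, -0.406 and -0.336 with limma on log2(FPKM + 0.1) and log2(FPKM + 1), -0.399 without a filter, and -0.397 to -0.344 with each library left out. With each library left out, 0 to 1 recombination genes were lower by fold and p, and 0 to 1 end joining genes were higher. That count was 0 with DESeq2, library totals only and limma with either pseudocount. Over all genes, 756 were higher by fold and p with at least 1 CPM in every library, and limma on log2(FPKM + 1) gave 430 higher and 206 lower, the larger pseudocount shrinking the folds of low genes. EXO1 lost its call without the second shNC library. The replicate numbers did not pair the libraries (correlations of deviations 0.03, 0.014 and -0.043), and with the replicate block 31 genes were lower and 1 higher, with a median of -0.374. Genes with few reads, such as FANCG and DMC1, had the widest intervals.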
